A study of Homo sapiens with 7 samples.

Results

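The SR splicing factor genes described here are SRSF1, SRSF2, SRSF3, SRSF4, SRSF5, SRSF6, SRSF7, SRSF9, SRSF10 and SRSF11, that is 10 of the 16044 genes with a sense polyA site (PAS) in the deposited count tables. A gene belongs to the set by its symbol, and the rule for membership uses no measured value. The libraries came from HEK293, a transformed human embryonic kidney line, transfected with control siRNA (siCtrl) or siRNA duplexes that knock down (KD) the nuclear poly(A) polymerases Star-PAP (siStarPAP in the labels, siStar-PAP here), PAPα (siPAPa), PAPγ (siPAPg) or PAPα together with PAPγ (siPAPag, written siPAPα+γ). 3′READS sequences the 3′ end of polyadenylated RNA, so that 1 read marks 1 cleaved and polyadenylated end and the level of a gene does not scale with its length. There were 7 libraries, 1 for each condition in a batch, and siStar-PAP and siCtrl were the only conditions with a library in batch 2, which was made with the modified 3′READS+ protocol. All 4 KDs outside batch 2 were set against the same siCtrl library, and the labels do not give a batch for siPAPα+γ. The siRNA treatment was transient, and nothing in the sources used here says whether the libraries of a batch came from separate cultures.

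SR proteins carry RNA recognition motifs and a domain rich in arginine-serine dipeptides, bind short sequences in exons, and recruit the spliceosome to the neighbouring splice sites. Many of them move between nucleus and cytoplasm and also take part in mRNA export, translation and the choice of PAS. Several SR genes limit their own expression through alternative splicing of ultraconserved exons or introns that yields RNA subject to nonsense-mediated decay. Star-PAP, encoded by TUT1, is a non-canonical nuclear poly(A) polymerase, whereas PAPα (PAPOLA) and PAPγ (PAPOLG) are canonical ones.

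The tables held between 2347192 and 16191098 sense reads per library, and levels are given as RPM, that is reads for every 1000000 PASS reads of the library, a PASS read being one that carries untemplated Ts from the poly(A) tail. TUT1 reads went from 83 in siCtrl to 2 in siStar-PAP in batch 1 and from 6 to 4 in batch 2, where the count is too low to check the label. PAPOLA reads went from 71 in siCtrl to 12 in siPAPα, and from 78 to 8 in the table with siPAPα+γ. PAPOLG had 5 reads in siCtrl, 15 in the library labelled siPAPγ and 6 in siPAPα+γ. Its reads therefore do not check the siPAPγ label, nor the PAPγ part of siPAPα+γ. The HEK293 markers NEFL, LIN28B and VIM were present in every library. The HEK293 marker NEFM had between 1 and 280 reads, with 3 and 1 in batch 2, and PAX2 had between 0 and 14. PTPRC (blood) and ALB (liver) had 0 reads throughout. After scaling to PASS reads, the median log2 ratio of KD to siCtrl over all genes was -0.26 for siPAPα, -0.33 for siPAPγ, -0.38 for siPAPα+γ, -0.45 for siStar-PAP in batch 1 and -0.16 for siStar-PAP in batch 2. A ratio below 0 can therefore still lie above the median gene, and the distance from that median is given where the text turns on it. With bulk RNA, fewer expressing cells and less RNA per cell cannot be told apart.

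The 10 genes had 38 sense PASs over the 3 tables, of which 32 lay in last exons and 6 in introns. The intronic ones belonged to SRSF5 (1) and SRSF10 (5). SRSF7, SRSF9 and SRSF11 had a single PAS each. The PASs on which the results turn are given as the 30 bases that end 7 bases before the cleavage position, taken from the hg19 sequence on the strand of the gene, with the polyadenylation signal (AATAAA or ATTAAA) in capitals. The names give the distance past the stop codon of the representative transcript of GENCODE v44, counted along the genome.
SRSF2 proximal PAS, 1324 nt past the stop codon, chr17:74730926-74730955, minus strand: ctttttttgtttgaaATTAAAcagattggt
SRSF2 distal PAS, 2033 nt, chr17:74730217-74730246, minus strand: gtttctgtagtttaATTAAAacattttctt
SRSF3 PAS 304 nt past the stop codon, chr6:36570034-36570063, plus strand: tatgcacagactgatAATAAAcctctaaac
SRSF3 PAS 795 nt, chr6:36570525-36570554, plus strand: cttgggATTAAAgttttggttacaaattgt
SRSF3 PAS 932 nt, chr6:36570662-36570691, plus strand: agtgcttttgaattAATAAAatattagcat
SRSF5 PAS in intron 5, chr14:70236193-70236222, plus strand: atttttaaccaaatATTAAAccctttattt
SRSF5 proximal PAS, 209 nt past the stop codon, chr14:70238351-70238380, plus strand: gttgaaaactaattgtATTAAAtgtctttt
SRSF5 distal PAS, 544 nt, chr14:70238686-70238715, plus strand: agctgtttgttattgatAATAAAatattat
SRSF6 PAS 628 nt past the stop codon, chr20:42090295-42090324, plus strand: cctcagaccagcAATAAAttactcagtttg
SRSF6 distal PAS, 2542 nt, chr20:42092209-42092238, plus strand: gtgctttaaatctcAATAAAatacttactg
SRSF11 PAS, 1196 nt past the stop codon, chr1:70717648-70717677, plus strand: gttttacaagactttgatAATAAAaccctt

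In these windows both SRSF2 PASs use ATTAAA, and the SRSF5 gene pairs ATTAAA at its intronic and proximal PASs with AATAAA at its distal PAS. Of the 32 last-exon PASs of the 10 genes, 14 had AATAAA in the 40 bases before the cleavage position and 9 more had ATTAAA only, which is 43.8% and 28.1%. Over all 50183 last-exon PASs of the series the shares were 44.6% and 15.4%. The trimer ATA, on the gene strand, occurred between 100 and 41 bases before the PAS at 22 of the 32 PASs (68.8%), beside 59.7% of all last-exon PASs. A motif match is a description of the sequence and not of a bound site. All these PASs but 1 lay within the annotated gene. The exception was a PAS of SRSF1 at chr17:56075080, 3200 nt past the annotated end. A PAS of SRSF6 at chr20:42089550 and a PAS of SRSF4 at chr1:29475571 lay before the stop codon, in the coding part of the last exon.

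The levels of the 10 genes in siCtrl of batch 1 ran from 250.03 RPM for SRSF2, which also acts in transcription elongation, down to 6.74 RPM for SRSF10, a splicing repressor when dephosphorylated. SRSF2 was followed by SRSF9 at 234 RPM, and the 95% Poisson intervals of that pair overlapped. SRSF3 at 178 RPM, SRSF11 at 125 RPM and SRSF7 at 63.5 RPM came next, each apart from its neighbours by more than the counting error. SRSF6, SRSF4, SRSF5 and SRSF1 lay between 29.9 and 17.2 RPM, with intervals that overlapped from each to the next. In siCtrl of batch 2 SRSF2 was again highest, at 237 RPM, but SRSF3 had 42.8 RPM, SRSF9 56.1 RPM and SRSF11 47.1 RPM, whereas SRSF1 had 38.8 RPM and SRSF5 47.9 RPM. The batches differ in protocol, so batch and protocol cannot be told apart, and KD libraries are compared with the siCtrl column of their own table. The table with siPAPα+γ lists the siCtrl library of batch 1 a second time, with the same reads for 8 of the 10 genes but 289 in place of 286 for SRSF4 and 354 in place of 342 for SRSF6, and the ratios and shares of siPAPα+γ use the listing of its own table. Over the 7 libraries the highest level of SRSF11, in siPAPα, was 13.7 times its lowest, in siStar-PAP of batch 2. That span crosses batch and protocol as well as KD. The highest level of SRSF7 was 1.77 times its lowest. The Poisson intervals cover counting error only, because each condition had 1 library in a batch. The methods of the study describe no removal of PCR duplicates, and the intervals make no allowance for them.

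**Figure D1:**
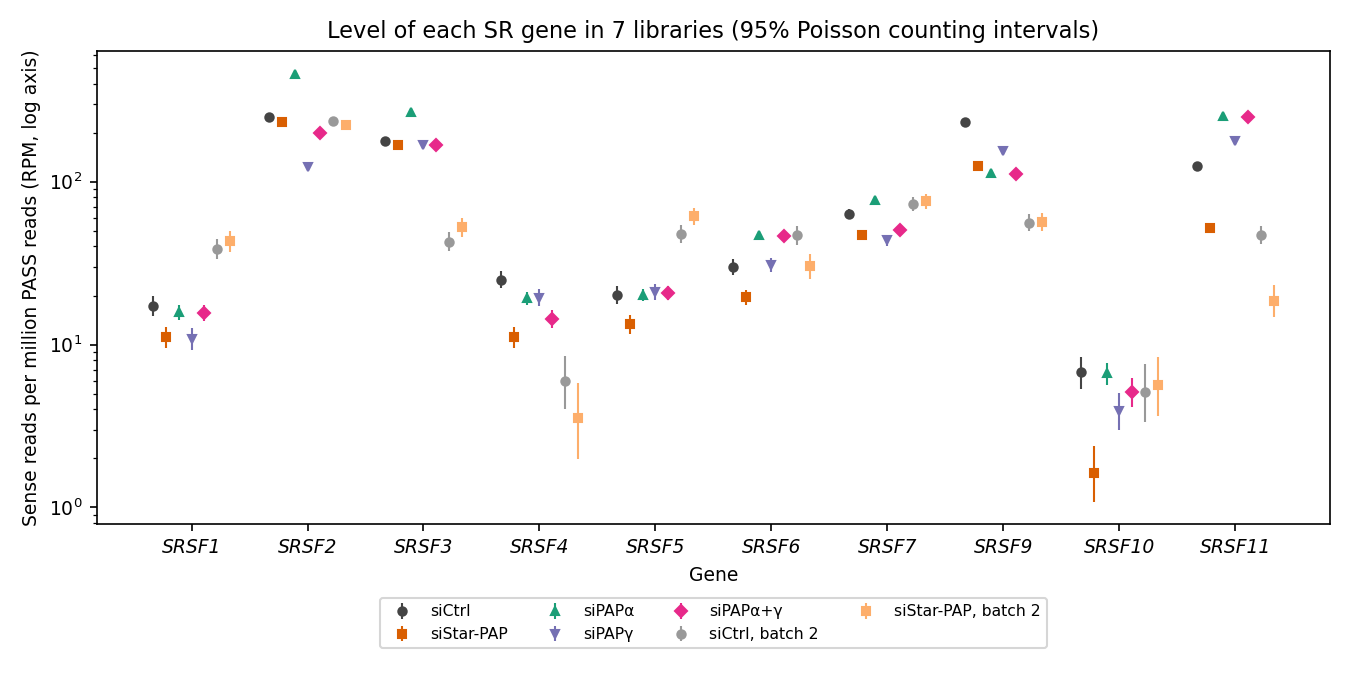
Level of each gene in RPM (log axis) in the 7 libraries, with 95% Poisson intervals for counting error as bars. SRSF11 is lowest in the siStar-PAP library of each batch (51.7 and 18.6 RPM) and highest in siPAPα (254 RPM), and SRSF9 is at 234 RPM in siCtrl and at 111 to 155 RPM in the 4 KD libraries set against it.

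With 1 library for each condition in a batch there is no test of a KD on gene level, and a gene with more than 50 reads over the pair was called when its RPM differed by more than 2-fold. In siStar-PAP of batch 1, SRSF10, SRSF11 and SRSF4 were more than 2-fold lower, 3 of 10 genes beside 26.2% of the 10079 genes tested, and 0 were more than 2-fold higher, beside 4.44%. In siPAPα, SRSF9 was lower (1 of 10, beside 22.1%) and SRSF11 was higher (1 of 10, beside 8.50%). In the library labelled siPAPγ, SRSF2 was lower (1 of 10, beside 20.7%) and 0 were higher (beside 5.67%). In siPAPα+γ, SRSF9 was lower (1 of 10, beside 26.5%) and 0 were higher (beside 6.98%). In siStar-PAP of batch 2, 8 of the 10 genes passed the read filter, of which SRSF11 was lower (1 of 8, beside 11.7%) and 0 were higher (beside 3.55%). With TMM factors the share of called genes that were higher moved from 27.8% to 48.3% in siPAPα, from 21.5% to 46.5% in siPAPγ, from 20.9% to 45.9% in siPAPα+γ, from 14.5% to 45.1% in siStar-PAP and from 23.3% to 39.5% in batch 2, and the SR genes called were then SRSF10 (lower in siStar-PAP), SRSF2 and SRSF11 (higher in siPAPα), SRSF11 (higher in siPAPα+γ) and SRSF11 (lower in batch 2). With TMM factors 1341 of all 10079 genes tested were lower in siStar-PAP of batch 1 and 618 of 7127 in batch 2. Higher were 1493 of 10808 in siPAPα and 1367 of 10022 in siPAPα+γ. The shares of SR genes called lie near the background and are not a result about the SR genes as a set. The median log2 ratio of the 10 genes was 0.14 in siPAPα, -0.45 in siPAPγ, -0.24 in siPAPα+γ and -0.62 in siStar-PAP, and that of the 8 genes in batch 2 was 0.03.

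**Figure D2:**
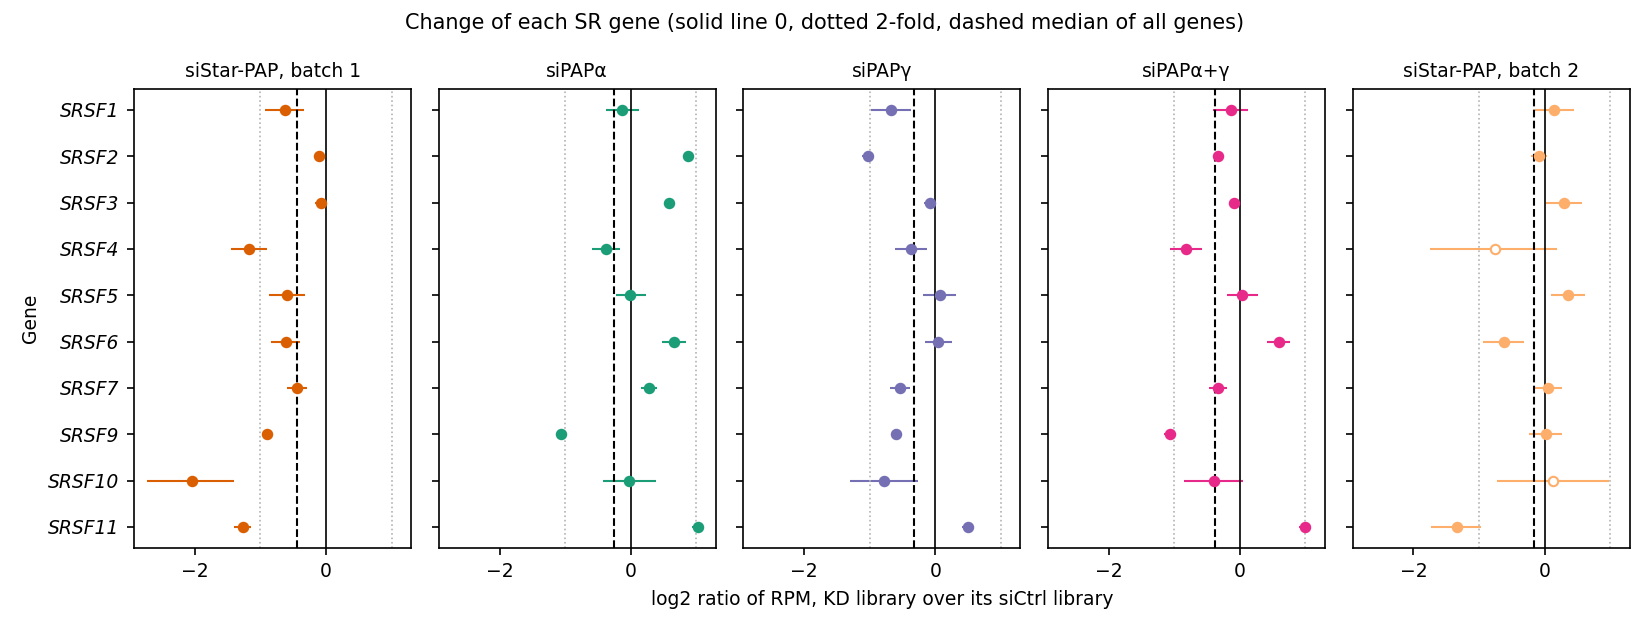
log2 ratio of RPM of each KD library to its siCtrl library, with exact conditional binomial 95% intervals for counting error. Open points are genes with 50 reads or fewer over the pair, and the dashed line is the median of all genes, which lies at -0.45 in siStar-PAP of batch 1 and at -0.16 in batch 2.

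SRSF11 encodes an SR protein that binds U2AF, the factor that recognises the 3′ splice site. Its level was 125 RPM in siCtrl, 51.7 RPM in siStar-PAP, 254 RPM in siPAPα, 177 RPM in siPAPγ and 249 RPM in siPAPα+γ. In batch 2 it was 47.1 RPM in siCtrl and 18.6 RPM in siStar-PAP. SRSF11 was thus below siCtrl in siStar-PAP of each batch and above siCtrl in the 3 other KDs. The log2 ratio was -1.27 in siStar-PAP (95% interval -1.40 to -1.15), which is 0.83 below the median gene, and -1.34 in batch 2 (-1.73 to -0.97), or -1.18 relative to the median gene. In siPAPα the log2 ratio was 1.02 (0.94 to 1.11), in siPAPγ 0.50 (0.41 to 0.59) and in siPAPα+γ 0.99 (0.91 to 1.08). Those values lie 1.28, 0.83 and 1.38 above the median gene, so that with TMM factors of edgeR, which centre the bulk of genes, SRSF11 passed 2-fold in siPAPα+γ too, and no longer in siStar-PAP of batch 1 (-0.82). All reads of SRSF11 came from its single PAS.

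SRSF9, a small SR protein that also has a single PAS, had 234 RPM in siCtrl and 125 RPM in siStar-PAP. Its level was 112 RPM in siPAPα, 155 RPM in siPAPγ and 111 RPM in siPAPα+γ. In batch 2 it was 56.1 RPM in siCtrl and 56.7 RPM in siStar-PAP. The log2 ratios were -1.06 in siPAPα, -0.59 in siPAPγ, -1.07 in siPAPα+γ and -0.90 in siStar-PAP, and after the median gene was subtracted they were -0.80, -0.26, -0.69 and -0.45. Since the 4 values share 1 siCtrl library, a high siCtrl value would lower all of them together, and this was not tested. In batch 2 the log2 ratio was 0.02, with an interval from -0.24 to 0.27 that does not include the value of batch 1. The PAS of SRSF9 holds neither AATAAA nor ATTAAA in the 40 bases before it.

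SRSF2 had 250.03 RPM in siCtrl, 232 RPM in siStar-PAP, 461 RPM in siPAPα, 123 RPM in siPAPγ and 198 RPM in siPAPα+γ. In batch 2 it had 237 RPM in siCtrl and 224 RPM in siStar-PAP. The siPAPα library stood above siCtrl (log2 ratio 0.88, interval 0.82 to 0.94) and the siPAPγ library below it (-1.03, -1.11 to -0.94), and the library with both siRNAs lay at -0.33 (-0.41 to -0.26). Relative to the median gene these are 1.14, -0.70 and 0.05, so that in siPAPα+γ the direction depends on the scaling. In siStar-PAP the log2 ratio was -0.11 in batch 1 and -0.08 in batch 2, both of which are above 0 after the median gene is subtracted (0.34 and 0.08).

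SRSF3 is the smallest SR protein and an adaptor of the mRNA export receptor. It had 178 RPM in siCtrl, 168 RPM in siStar-PAP, 267 RPM in siPAPα, 168 RPM in siPAPγ and 167 RPM in siPAPα+γ. Only siPAPα departed from siCtrl by much more than the counting error (log2 ratio 0.58, 0.51 to 0.66, and 0.84 relative to the median gene). In batch 2 the levels were 42.8 and 52.7 RPM, a log2 ratio of 0.30 (0.02 to 0.58), or 0.46 relative to the median gene. SRSF7, which shares the export function with SRSF3 and carries a zinc knuckle, had 63.5 RPM in siCtrl, 46.8 RPM in siStar-PAP, 77.3 RPM in siPAPα, 43.7 RPM in siPAPγ and 50.4 RPM in siPAPα+γ. In siStar-PAP its log2 ratio of -0.44 was 0.01 above the median gene, and in batch 2, with 73.1 RPM in siCtrl and 75.5 RPM in siStar-PAP, it was 0.05.

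SRSF1, the founding member of the family, had 17.2 RPM in siCtrl, 11.1 RPM in siStar-PAP, 15.7 RPM in siPAPα, 10.8 RPM in siPAPγ and 15.6 RPM in siPAPα+γ. Its log2 ratio was -0.63 in siStar-PAP and -0.67 in siPAPγ, but 0.15 (-0.15 to 0.45) in batch 2, where the levels were 38.8 and 43.1 RPM. Relative to the median gene these are -0.19, -0.34 and 0.31. SRSF4, a long SR protein with an extended arginine-serine domain, had 25.03 RPM in siCtrl and was lowest in siStar-PAP, at 11.1 RPM. It had 19.3 RPM in siPAPα, 19.4 RPM in siPAPγ and 14.4 RPM in siPAPα+γ. Its log2 ratio in siStar-PAP was -1.18 (-1.45 to -0.91), and in batch 2, with 30 and 15 reads, it was -0.75 with an interval that included 0 (-1.75 to 0.19). Relative to the median gene the values are -0.73 and -0.59.

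SRSF5 and SRSF6 are close relatives of SRSF4. SRSF5 had 20.2 RPM in siCtrl, 13.4 RPM in siStar-PAP, 20.2 RPM in siPAPα, 21.2 RPM in siPAPγ and 20.8 RPM in siPAPα+γ. Its log2 ratio was -0.60 in siStar-PAP of batch 1 (-0.87 to -0.33) and 0.35 in batch 2 (0.09 to 0.61), where it had 47.9 and 61.2 RPM, so that the batches lay on opposite sides of 0, as they did relative to the median gene (-0.15 and 0.52). SRSF6 had 29.9 RPM in siCtrl, 19.5 RPM in siStar-PAP, 47.3 RPM in siPAPα, 30.8 RPM in siPAPγ and 46.6 RPM in siPAPα+γ. For SRSF6 the log2 ratio in siStar-PAP was -0.62 in each batch, with 46.7 and 30.4 RPM in batch 2, and it was 0.66 in siPAPα and 0.59 in siPAPα+γ. Relative to the median gene these are -0.17 in siStar-PAP of batch 1, -0.46 in batch 2, 0.92 in siPAPα and 0.97 in siPAPα+γ. SRSF10 had 77 reads (6.74 RPM) in siCtrl, 27 reads (1.63 RPM) in siStar-PAP, 167 reads (6.66 RPM) in siPAPα, 58 reads (3.92 RPM) in siPAPγ and 96 reads (5.11 RPM) in siPAPα+γ. The siStar-PAP library of batch 1 was the lowest, with a log2 ratio of -2.05 (-2.74 to -1.40), 1.60 below the median gene, whereas in batch 2 SRSF10 had 26 reads in siCtrl and 24 in siStar-PAP (log2 ratio 0.13, -0.73 to 0.99).

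Only siStar-PAP had a library in each batch, and the 4 libraries were fitted together with edgeR's quasi-likelihood test with batch as a block, which leaves 1 residual degree of freedom. Of 11614 genes tested, 125 (1.08%) fell and 141 (1.21%) rose at an adjusted p below 0.05 (Benjamini-Hochberg). All 10 SR genes were tested and 0 passed in either direction. With DESeq2, 89 of the 11614 genes fell and 187 rose at an adjusted p below 0.05. It gave an adjusted p for 8 of the SR genes, all but SRSF4 and SRSF10, and 0 passed. With edgeR 840 of all 11614 genes were lower and 914 higher at an unadjusted p below 0.05. Of the 10 SR genes 1, SRSF11, was among them. Its edgeR log2 fold change was -0.94 (SE 0.34, adjusted p = 0.164), and it was lower in siStar-PAP in 2 of 2 batches. With DESeq2 the SRSF11 log2 fold change was -0.92 and the adjusted p = 0.145. The other 9 SR genes had edgeR log2 fold changes between -0.65 (SRSF10, SE 0.64) and 0.46 (SRSF3, SE 0.32). Without the batch block, 0 genes passed in either direction (45 lower and 17 higher at an unadjusted p below 0.05, edgeR), and the adjusted p of SRSF11 was 1.00.

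Alternative polyadenylation within the last exon was read from the pair of last-exon PASs with most reads in a table. The reads of the pair in the KD and siCtrl libraries were compared by Fisher's exact test, two-sided, with Benjamini-Hochberg adjustment over all genes with such a pair. Such a test compares single libraries and not conditions. In siStar-PAP of batch 1, 3 of the 6 SR genes with a pair differed (42.7% of all genes did so), in siPAPα 4 of 6 (46.6%), in siPAPγ 5 of 6 (36.5%), in siPAPα+γ 5 of 6 (48.6%) and in siStar-PAP of batch 2 1 of 5 (11.3%).

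SRSF2 shifted toward its proximal PAS, and in siPAPγ and siPAPα+γ its log2 odds were further from 0 than those of the other SR genes with a pair, whereas in siStar-PAP of batch 1 and in siPAPα those of SRSF5 were. Of its last-exon reads, 9.63% came from the proximal PAS in siCtrl, beside 40.6% in siPAPγ, 27.2% in siPAPα+γ, 17.5% in siStar-PAP and 11.9% in siPAPα. In batch 2 the share was 5.18% in siCtrl and 10.4% in siStar-PAP. In each KD library the proximal share was thus above that of its siCtrl, and the order of siPAPγ, siPAPα+γ and siStar-PAP was separated by more than counting error (95% intervals 38.4 to 42.9%, 25.7 to 28.6% and 16.3 to 18.8%). In levels, the distal PAS had 226 RPM in siCtrl and 72.9 RPM in siPAPγ, whereas the proximal PAS had 24.1 and 49.9 RPM. In siPAPα both PASs were above siCtrl, at 406 and 54.9 RPM. The log2 odds of distal to proximal reads, KD relative to siCtrl, were -0.996 in siStar-PAP (adjusted p = 7.0e-19, exact test), -0.35 in siPAPα (adjusted p = 0.00173), -2.68 in siPAPγ (adjusted p = 2.4e-134) and -1.81 in siPAPα+γ (adjusted p = 6.0e-73). In batch 2 they were -1.09 for siStar-PAP (adjusted p = 0.000318, exact test).

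**Figure D3:**
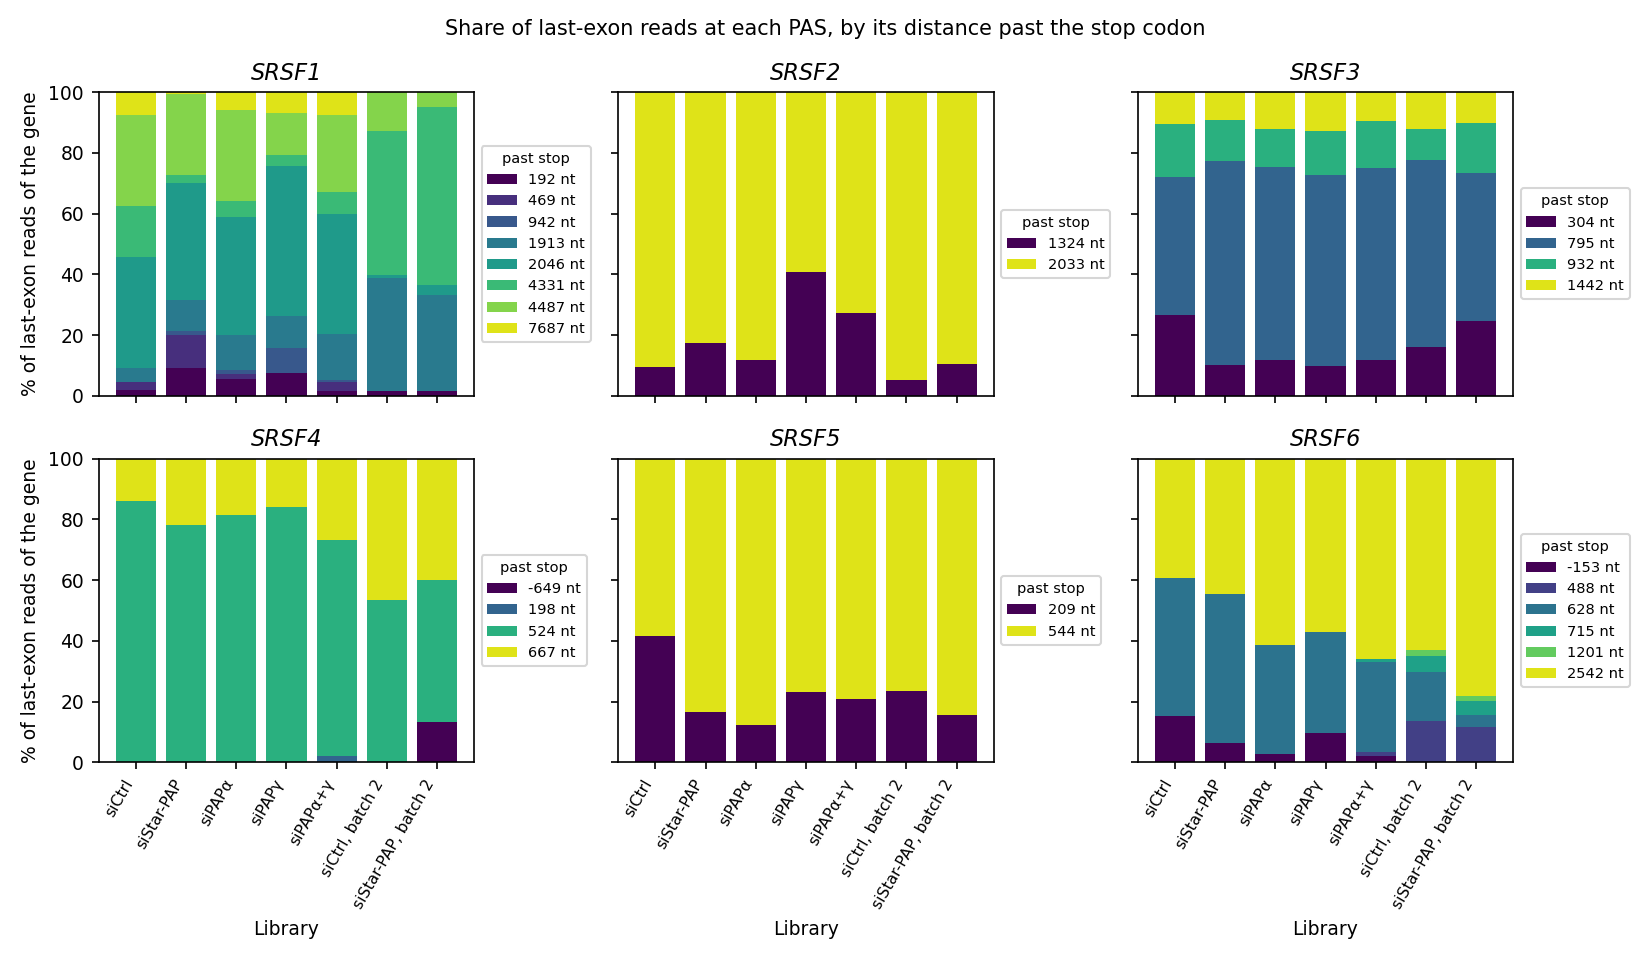
Share of last-exon reads at each PAS, in percent, for the 6 genes with more than 1 last-exon PAS in batch 1, in the 7 libraries; colours give the distance past the stop codon along the genome, and a negative distance lies before it. The SRSF2 PAS at 1324 nt takes 40.6% of reads in siPAPγ and 9.63% in siCtrl, and the SRSF5 PAS at 209 nt takes 41.6% in siCtrl and 12.3% to 23.2% in the 4 KD libraries set against it.

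SRSF3 had 4 last-exon PASs. Its most proximal PAS, 304 nt past the stop codon, took 26.7% of last-exon reads in siCtrl, beside 9.77% in siPAPγ, 9.98% in siStar-PAP and 11.8% in both siPAPα and siPAPα+γ. The PAS at 795 nt took 45.4% in siCtrl and between 62.9% and 67.4% in the 4 KD libraries. In batch 2, by contrast, the 304 nt PAS took 16.2% in siCtrl and 24.6% in siStar-PAP, and the 795 nt PAS 61.6% and 48.7%. The top pair of SRSF3 was that at 795 and 932 nt in the table of batch 1 and that at 304 and 795 nt in the other tables. On the former the log2 odds were -0.93, -0.95 and -0.72 in siStar-PAP, siPAPα and siPAPγ, but for the most proximal against the most distal PAS they were 1.21, 1.38 and 1.71, so that the direction depended on which PASs were compared. In siPAPα+γ the log2 odds of the 795 nt PAS to the 304 nt PAS were 1.66 (adjusted p = 4.9e-48, exact test), whereas in siStar-PAP of batch 2 they were -0.94 (adjusted p = 0.0703, exact test).

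SRSF5 shifted the other way from SRSF2. Its distal PAS took 58.4% of last-exon reads in siCtrl (122 of 209 reads), beside 76.8% in siPAPγ, 79.2% in siPAPα+γ, 83.4% in siStar-PAP and 87.7% in siPAPα. In batch 2 it took 76.4% in siCtrl and 84.4% in siStar-PAP. The siCtrl of batch 1 was the lowest of the 7 libraries, and the siCtrl of batch 2 was the next lowest, with an interval (70.6 to 81.6%) that overlapped that of siPAPγ (71.8 to 81.4%). The log2 odds were 1.84, 2.35, 1.24 and 1.44 in the KDs set against siCtrl of batch 1, in the order siStar-PAP, siPAPα, siPAPγ and siPAPα+γ (largest adjusted p = 8.5e-05, exact test), and 0.73 in batch 2 (adjusted p = 0.146, exact test). In levels the proximal PAS had 7.61 RPM in siCtrl and 2.18 to 4.87 RPM in the 4 KD libraries.

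SRSF6 used its distal PAS, 2542 nt past the stop codon, for 39.5% of last-exon reads in siCtrl, beside 44.6% in siStar-PAP, 57.0% in siPAPγ, 61.3% in siPAPα and 65.9% in siPAPα+γ, in whose table the siCtrl share was 38.1%. In batch 2 the share was 63.1% in siCtrl and 78.3% in siStar-PAP. The log2 odds to the PAS at 628 nt were 0.07 in siStar-PAP (adjusted p = 0.912, exact test), 0.97 in both siPAPα and siPAPγ, and 1.36 in siPAPα+γ (adjusted p = 1.5e-10, exact test). The SRSF6 PAS in the coding part of the last exon had 52 reads in siCtrl (15.2%), 44 in siPAPγ (9.65%), 33 in siPAPα (2.78%), 21 in siStar-PAP (6.50%) and 18 in siPAPα+γ (2.05%, beside 14.7% for siCtrl in the same table).

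SRSF1 divided its reads among the largest number of last-exon PASs, 8. Among the KDs set against siCtrl of batch 1, its pair at 2046 and 4487 nt differed only in siPAPγ. There the distal share of the pair was 21.8% beside 45.04% in siCtrl (log2 odds -1.56, adjusted p = 0.00147, exact test). In batch 2 the top pair of SRSF1 was that at 1913 and 4331 nt (log2 odds 0.53, adjusted p = 0.332, exact test). The PAS at 4331 nt, 156 nt before the annotated end, held 33 of 197 reads in siCtrl (16.8%) and 5 of 184 in siStar-PAP (2.72%). Its share was also below siCtrl in siPAPα (5.06%), siPAPγ (3.75%) and siPAPα+γ (7.14%), which were set against the same siCtrl library. In batch 2 it held 93 of 196 reads in siCtrl (47.4%) and 107 of 183 in siStar-PAP (58.5%). SRSF4 used the PAS at 524 nt for 71.1% of reads in siPAPα+γ, beside 85.1% for siCtrl in the same table, and its pair passed the test in siPAPα+γ alone (log2 odds 1.21, adjusted p = 0.000497, exact test). The difference between KDs was not tested for SRSF1 or SRSF4.

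Over both batches, siStar-PAP was tested with diffSpliceDGE of edgeR on the pair of batch 1, an analysis added after the data were seen. Of 3639 genes 0 passed (0%), with 102 lower and 119 higher at an unadjusted p below 0.05, and 0 of the 6 SR genes passed. SRSF2 had the smallest p of them, with log2 odds of -1.04 (adjusted p = 0.765) and a shift to the proximal PAS in 2 of 2 batches. For SRSF5 the log2 odds were 1.29 (adjusted p = 0.842), toward the distal PAS in 2 of 2 batches.

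Intronic PASs were found in SRSF5 and SRSF10 only. The intronic PAS of SRSF5 lies in intron 5 of the representative transcript, at chr14:70236229, and within an exon of 5 of its 19 GENCODE transcripts, so that an end there could come from a retained intron. It had 22 reads in siCtrl, beside 10 in siPAPα, 5 in siPAPα+γ, 4 in siStar-PAP and 2 in siPAPγ. Those reads were 9.52% of all reads of SRSF5 in siCtrl (exact binomial 95% interval 6.07 to 14.1%), beside 1.98% in siPAPα, 1.81% in siStar-PAP (0.50 to 4.57%), 1.28% in siPAPα+γ (0.42 to 2.97%) and 0.64% in siPAPγ. In batch 2 siCtrl had 0 of 242 reads, which allows a share of up to 1.24%, and siStar-PAP had 4 of 260 (1.54%). The siCtrl of batch 1 was thus the highest of the 7 libraries and the only one whose interval lay above all others. Fisher's exact test against it gave adjusted p = 8.1e-05 with siPAPα, 5.6e-06 with siPAPγ, 1.6e-05 with siPAPα+γ and 0.00169 with siStar-PAP.

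**Figure D4:**
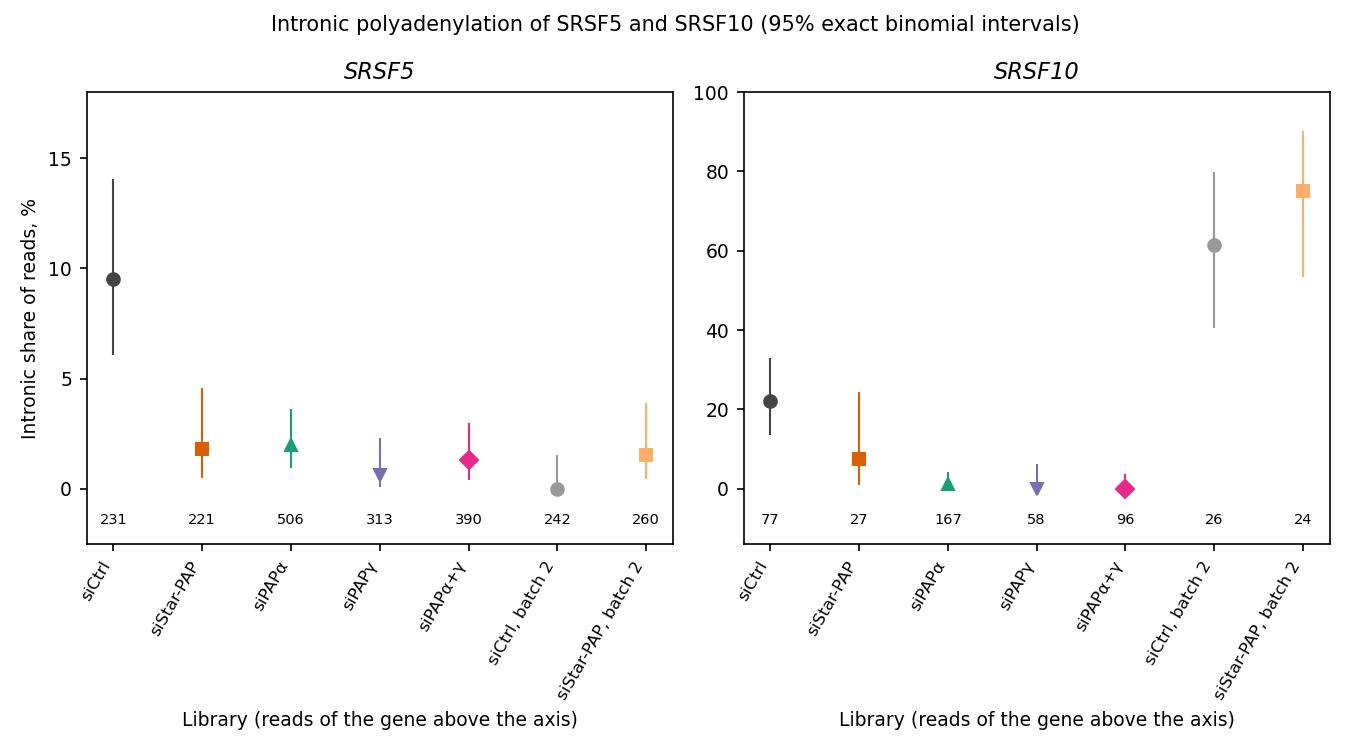
Share of the reads of SRSF5 and SRSF10 that came from intronic PASs, in percent, in the 7 libraries, with exact binomial 95% intervals; the read number of the gene stands under each point. For SRSF5 siCtrl of batch 1 is at 9.52% and siCtrl of batch 2 at 0, and for SRSF10 the libraries of batch 2 are at 61.5% and 75% on 26 and 24 reads.

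SRSF10 had 5 intronic PASs, in introns 1, 2 and 5 of its representative transcript, and no PAS in the tables with more than 15 intronic reads. Its intronic PASs held 17 of 77 reads in siCtrl (22.1%), 2 of 27 in siStar-PAP (7.41%), 2 of 167 in siPAPα (1.20%), 0 of 58 in siPAPγ and 0 of 96 in siPAPα+γ. The counts of 0 allow shares of up to 5.17% and 3.13%. In batch 2 the share was 61.5% in siCtrl (16 of 26) and 75% in siStar-PAP (18 of 24), mostly from the PAS in intron 2 at chr1:24305069. The share was below siCtrl in siPAPα (adjusted p = 7.1e-07, exact test), siPAPγ (adjusted p = 0.000298) and siPAPα+γ (adjusted p = 3.5e-06), but the difference from siCtrl in siStar-PAP did not pass (adjusted p = 0.223, exact test). Over the last exon, SRSF10 had 60 reads in siCtrl, 25 in siStar-PAP and 165 in siPAPα.

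Of the SR genes with both kinds of PAS, the intronic share thus differed in 1 of 2 in siStar-PAP (46.6% of all genes tested), in 2 of 2 in siPAPα (48.7%), in 2 of 2 in siPAPγ (34.9%), in 2 of 2 in siPAPα+γ (44.0%) and in 0 of 2 in siStar-PAP of batch 2 (12.9%). Summed over all genes, intronic PASs held 4.78% of reads in siCtrl, beside 4.88% in siStar-PAP, 4.02% in siPAPγ, 3.70% in siPAPα and 3.67% in siPAPα+γ. In the fit of siStar-PAP over both batches with diffSpliceDGE, 0 of 3691 genes passed (0%), with 175 lower and 191 higher at an unadjusted p below 0.05. The adjusted p was 0.939 for SRSF5 and 0.905 for SRSF10.

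A list of 26 other genes of the SR pathway held the SR kinases SRPK1, SRPK2 and CLK1 to CLK4, the importin TNPO3, 14 SR-like or SR-related genes, the U2AF genes, SRSF8 and SRSF12. In siStar-PAP of batch 1, 5 of the 23 genes tested were more than 2-fold lower (beside 26.2% of all genes) and 1 was higher (beside 4.44%), with a median log2 ratio of -0.55 beside -0.45 over all genes. In siPAPα 3 of 23 were lower (beside 22.1%) and 1 higher (beside 8.50%), and in siPAPγ 6 of 23 were lower (beside 20.7%) and 0 higher (beside 5.67%). In siPAPα+γ 3 of 22 were lower (beside 26.5%) and 0 higher (beside 6.98%), and in siStar-PAP of batch 2, 2 of 22 were lower (beside 11.7%) and 0 higher (beside 3.55%). TRA2A, an SR-like activator of splicing, was the only gene of the list past 2-fold in the same direction in the 4 KDs set against siCtrl of batch 1, with 10.7 RPM in siCtrl and 3.93, 4.74, 3.72 and 3.57 RPM in siStar-PAP, siPAPα, siPAPγ and siPAPα+γ. That call depends on the scaling, since relative to the median gene the log2 ratios of TRA2A were -0.997, -0.91, -1.19 and -1.20, past 2-fold in 2 of the 4 KDs. In batch 2 TRA2A had 46.9 RPM in siCtrl and 30.8 RPM in siStar-PAP. In the edgeR fit over both batches all 26 were tested and 0 passed in either direction, and the log2 fold change of TRA2A was -0.66 (SE 0.37, adjusted p = 0.410). Of all 11614 genes, which include genes without an adjusted p, DESeq2 called 89 lower and 187 higher. It gave an adjusted p for 16 of the 26 genes of the list and called 1 of them. That gene was U2AF2, the large subunit of U2AF, which was higher in siStar-PAP in 2 of 2 batches (log2 fold change 1.06, SE 0.35, adjusted p = 0.0447). In edgeR the log2 fold change of U2AF2 was 1.03 (SE 0.33, adjusted p = 0.118). Its levels were 103 RPM in siCtrl and 177 RPM in siStar-PAP in batch 1, and 58.2 and 86.6 RPM in batch 2.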

How the data were processed

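3′READS libraries of 7 HEK293 samples were used, all mapped to a condition from their labels. Per the methods of the study, hg19 alignments came from Bowtie2, uniquely aligned reads with 2 or more untemplated Ts counted as PASS reads, and PASs within 24 nt of each other were merged. The authors deposited raw read counts per PAS in 3 tables, and the table with siPAPα+γ holds the siCtrl library of batch 1 once more. The reads of a gene were summed over its sense PASs and scaled to the PASS read totals of the study. Ratios carry exact conditional binomial intervals, shares of reads Clopper-Pearson intervals, both at 95%, and a count of 0 allows up to 3 reads. Fisher's exact test and the fits of edgeR 4.0.16 (TMM factors, filterByExpr) and DESeq2 1.42.0 ran over all genes, with Benjamini-Hochberg adjustment at 0.05. Pairs needed 50 reads, and diffSpliceDGE needed 10 reads in each class. Batch was a block, since each batch has its own siCtrl and protocol. The deviations of siCtrl and siStar-PAP from their group means correlated at 0.887 over 11055 genes. With 1 library for each condition in a batch, that value is the same for both batches. It reflects the difference between batches that both conditions share, and it cannot show pairing within a batch. The computations were tested on simulated data. PASs were annotated with GENCODE v44 lifted to GRCh37.

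The SR family was picked for description, and the gene list drawn up, with earlier results of these data known, although membership follows from the symbol. All 10 SR genes are named, and of the list only genes past 2-fold in the same direction in the 4 KDs that share siCtrl, since 0 passed over both batches in edgeR, and U2AF2, added after its DESeq2 value was seen. Upstream antisense PASs were left out of gene levels. Alternatives were other scalings, read filters, fold thresholds, PAS classes and PAS pairs, and each batch alone.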

Additional observations from a re-analysis of the deposited data

Results flagged for a closer look

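Upstream antisense PASs, which entered no gene level, were read for SRSF1. The signal there was above that of siCtrl by more than the counting intervals in 2 libraries, at 2.03 RPM in siPAPγ (30 reads, 95% Poisson interval 1.37 to 2.89) and 1.70 RPM in siPAPα+γ (32 reads, 1.16 to 2.40), beside 0.35 RPM in siCtrl (4 reads, 0.10 to 0.90). In siStar-PAP it was 1.33 RPM and in siPAPα 0.80 RPM, with intervals that overlap that of siCtrl. In batch 2 it was 1.39 RPM in siCtrl and 1.41 RPM in siStar-PAP. The antisense PAS of SRSF5 went the other way, with 1.75 RPM in siCtrl (20 reads, 1.07 to 2.70) beside 0.12 RPM in siStar-PAP (0.01 to 0.44), 0.47 RPM in siPAPγ (0.19 to 0.97) and 0.11 RPM in siPAPα+γ (0.01 to 0.38), all below the siCtrl interval, and 0.88 RPM in siPAPα, whose interval overlaps it. In batch 2 SRSF5 had 3 such reads in siCtrl and 1 in siStar-PAP. For SRSF4, the antisense PAS in the table of the double KD had 6 reads in siCtrl and 0 in siPAPα+γ, with intervals that overlap. These differences were not tested over replicates.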

How the results depend on the processing

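With TMM factors or DESeq2 size factors 1 SR gene (SRSF10) in place of 3 was more than 2-fold lower in siStar-PAP of batch 1. Of all 10079 genes, 1341 were lower with TMM factors. In siPAPα 0 SR genes were lower and 2 higher (beside 1600 and 1493 of 10808 genes, TMM). In siPAPγ 0 were lower (beside 1216 of 10163). In siPAPα+γ 0 were lower and 1 higher (beside 1609 and 1367 of 10022). Scaling to table totals gave the same numbers of SR genes for siPAPα, siPAPγ and siPAPα+γ. Over all genes it called 2021 lower and 1127 higher in siPAPα, 1350 lower in siPAPγ, and 1894 lower and 1117 higher in siPAPα+γ. At 1.5-fold, 7 SR genes were lower in siStar-PAP, beside 4358 of all 10079 genes tested. In siPAPα 1 was lower and 3 were higher (beside 3945 and 1863 of 10808). In siPAPγ 4 were lower (beside 3834 of 10163). In siPAPα+γ 2 were lower and 2 higher (beside 4164 and 1434 of 10022). In batch 2, 2 of the 8 SR genes tested were lower (beside 1873 of 7127). Over all genes the numbers called at 2-fold (3085, 3307, 2681, 3356 and 1084, for siStar-PAP, siPAPα, siPAPγ, siPAPα+γ and siStar-PAP of batch 2) became 5385, 5808, 5074, 5598 and 2683 at 1.5-fold, and 6263, 5937, 5482, 6343 and 4227 with no read filter and a pseudocount of 1 read. Counting last-exon PASs only changed none of these calls on SR genes.

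In the edgeR fit over both batches, 0 genes fell and 0 rose with no replicate block, and 249 fell and 247 rose with a filter of 1 read in every library; 0 SR genes passed in any of these fits. With each batch alone (no test), the log2 fold change lay between -0.19 and 0.32 for SRSF1, -0.15 and 0.52 for SRSF5, and -0.45 and 0.18 for SRSF9, so that these reversed between batches. For the intronic share of SRSF10 the log2 odds were 1.04 with no replicate block and between -1.82 and 0.91 with each batch alone. For that of SRSF5 they were -2.51 with batch 1 alone. In batch 2 the SRSF5 share went the other way, from 0% in siCtrl to 1.54% in siStar-PAP, with no finite log2 odds. For the last-exon pair the log2 odds lay between -0.93 and 1.04 for SRSF3 and between -0.0297 and 0.78 for SRSF4 (an alternative chosen after seeing the data). The block changed no other call.

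With at least 200 reads, fewer genes were tested and the intronic share differed in 854, 1118, 677, 1036 and 143 genes in place of 1611, 1835, 1200, 1753 and 295, the last-exon pair of siStar-PAP in 1621 in place of 2501, and 1 SR gene in place of 2 was called for the intronic share in siPAPγ and in siPAPα+γ, since SRSF10 no longer entered. For the most proximal against the most distal PAS the log2 odds reversed for SRSF3 in siStar-PAP (1.21), siPAPα (1.38) and siPAPγ (1.71), and for SRSF1 in siStar-PAP of batch 2 (-1.14). Counting upstream exons with introns, a change of 5 percentage points and thinning kept every intronic call on SRSF5 and SRSF10 on its side of the threshold. With 1 library for each condition in a batch, depth limits counting error only, and SRSF10 and, in batch 2, SRSF4 had too few reads for a firm ratio.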
